A study of Mus musculus with 12 samples.

Results

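The 12 colon libraries of the series split into 8 in which the homeobox gene Hoxb13 stood at 10 FPKM or more and 4 in which it stood below 1 FPKM, and the comparison between them, with DSS as a covariate, is described here. FPKM is the number of fragments of a gene scaled to its exon length and to a size set for each library. All 12 of 12 libraries fell into a class, and none lay between the limits. Every sample was colon of wild-type C57BL/6J mice. The 4 treatments, with 3 samples each, were CD (a diet the labels do not spell out), HFD (high-fat diet), and either diet with 2% DSS. DSS (dextran sulfate sodium) is a polysaccharide that injures the colonic epithelium. The labels give neither an age nor the length of treatment, nor the place along the colon from which a sample was cut. Nor do they state whether samples are different animals, so p-values measure the spread between these samples, which may be technical.

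The Hoxb13-high class held CD 1, 2 and 3, HFD 3, CD+DSS 1 and HFD+DSS 1, 2 and 3. The Hoxb13-low class held HFD 1 and 2 and CD+DSS 2 and 3. Each stratum, with or without DSS, therefore had 4 high and 2 low libraries. All low libraries without DSS were HFD and all low libraries with DSS were CD+DSS, so within a stratum class and diet cannot be fully told apart. Only HFD and CD+DSS held libraries of both classes.

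Hox genes lie in 4 clusters, and their order within a cluster follows the order of their domains along the body from head to tail. The number 13 paralogs at the end of the clusters act in the hindgut, the urogenital tract and the tail. In the adult colon they remain more active toward the anus, where absorptive cells also differ from those near the caecum in ion transport and in the hormones of neighbouring endocrine cells.

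To show the sequence upstream of genes called higher in the Hoxb13-high libraries, 250 bases before the RefSeq start (build GRCm38.p6) are printed for 3 of them, Tgm3 at chr2:130012090-130012339, Eno3 at chr11:70656926-70657175 and Sval1 at chr6:41951378-41951627, all on the plus strand. Capitals mark a match to CAATAAA, a motif of caudal and Hox factors, here on the minus strand as TTTATTG.
Tgm3: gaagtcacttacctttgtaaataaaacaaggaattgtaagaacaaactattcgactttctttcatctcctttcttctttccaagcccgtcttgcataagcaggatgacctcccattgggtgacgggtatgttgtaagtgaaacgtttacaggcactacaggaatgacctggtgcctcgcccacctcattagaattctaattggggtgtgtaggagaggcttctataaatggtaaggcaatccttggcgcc
Eno3: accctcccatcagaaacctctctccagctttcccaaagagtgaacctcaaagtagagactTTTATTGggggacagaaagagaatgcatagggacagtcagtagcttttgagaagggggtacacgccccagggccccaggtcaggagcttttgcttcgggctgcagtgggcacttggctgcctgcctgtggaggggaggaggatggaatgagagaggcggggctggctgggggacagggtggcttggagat
Sval1: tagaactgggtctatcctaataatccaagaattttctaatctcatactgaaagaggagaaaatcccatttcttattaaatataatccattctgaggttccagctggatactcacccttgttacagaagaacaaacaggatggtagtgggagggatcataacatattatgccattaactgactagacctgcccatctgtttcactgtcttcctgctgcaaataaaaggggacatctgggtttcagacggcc
Of the 10 genes called higher, 8 had an entry, with 9 promoters. CAATAAA, searched on both strands, was in 1 of these 9, that of Eno3, and in 309 of 12750 promoters (2.42%) of all tested genes. TCGTAAA, a motif of the number 13 Hox proteins that shares only its last letters with CAATAAA, was in 0 of the 9 and in 71 of 12750 (0.557%). These are letter matches and not shown to be bound.

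All 12 libraries held colon epithelium by its markers, with Epcam at 599 to 1195 FPKM and Cdx2 at 43.8 to 227. CD 3, a Hoxb13-high library, also held RNA of neighbouring tissues. Svs5 and Svs4, secreted proteins of the seminal vesicle, were at 212 and 123 FPKM, and Pbsn, a prostate protein, at 17.3. The list of 8 prostate and seminal vesicle genes summed to 364 FPKM there and to at most 0.265 in any of the other 11 libraries, in which 5 of the 8 genes were at 0. Skeletal muscle genes summed to 43.6 FPKM there against 5.76 to 15.3 in the others, and 12 of 15 were highest there, such as the troponin Tnnt3 (4.58). Of 21 squamous epithelium genes 6 were highest there, such as the keratins Krt15 (17.4) and Krt4 (6.10), while the sum, at 55.0, lay within the range of the others (22.6 to 67.3). Prostate expresses Hoxb13 too, and the part of this RNA in the Hoxb13 value of CD 3 was not tested. The other 7 high libraries had Hoxb13 at 19.3 FPKM or more with the prostate list at or below 0.265. Without CD 3, all 11 genes called below were still called, with 15 called higher in all.

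**Figure D1:**
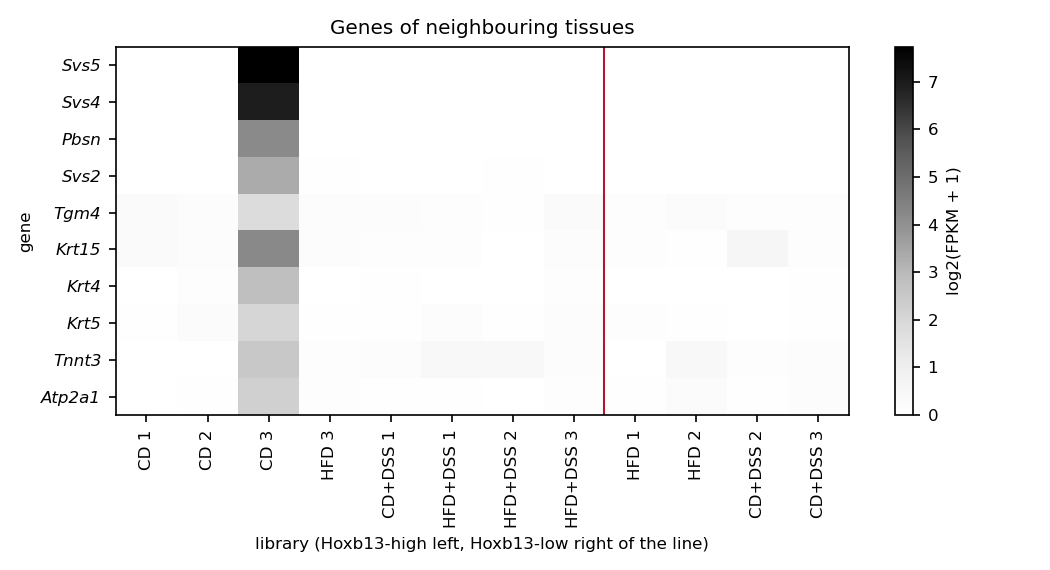
Levels of 10 genes of prostate and seminal vesicle (Svs5, Svs4, Pbsn, Svs2, Tgm4), squamous epithelium (Krt15, Krt4, Krt5) and skeletal muscle (Tnnt3, Atp2a1) as shades of log2(FPKM + 1), with libraries in columns and the classes divided by the line. The dark column is CD 3, where Svs5 reached 212 FPKM.

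Hoxb13 (chromosome 11, 96194316 to 96197447, plus strand, mm10) chose the classes, so its values and those of its paralogs are a description without a test. Its FPKM was 32.9, 61.3 and 28.8 in CD 1 to 3, and 19.3 in HFD 3. With DSS it was 22.6 in CD+DSS 1 and then 27.4, 37.8 and 62.8 in the 3 HFD+DSS libraries. In the low class it was 0.711 in HFD 1, 0 in HFD 2, 0.0336 in CD+DSS 2 and 0.122 in CD+DSS 3. The library just inside the upper limit was thus HFD 3 and the one just under the lower limit was HFD 1. In recovered fragments, the low libraries held 25, 0, 1 and 4 fragments of Hoxb13, and the high libraries 652 to 2644.

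Hoxd13, a paralog on another chromosome, was at 0 FPKM in 3 low libraries and at 0.0253 in HFD 1. In the high class it ranged from 1.11 in CD+DSS 1 to 27.2 in CD 2, with a median of 5.24. The classes did not overlap for Hoxd13. Hoxa13 did not separate the classes. Its FPKM was 6.30, 16.3, 1.59 and 10.0 in HFD 1, HFD 2, CD+DSS 2 and CD+DSS 3, and 7.25 to 24.7 with a median of 11.5 in the high class. HFD 2, without a fragment of Hoxb13, held more Hoxa13 than 5 of the 8 high libraries. Hoxc13 was listed at 0 in all libraries.

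**Figure D2:**
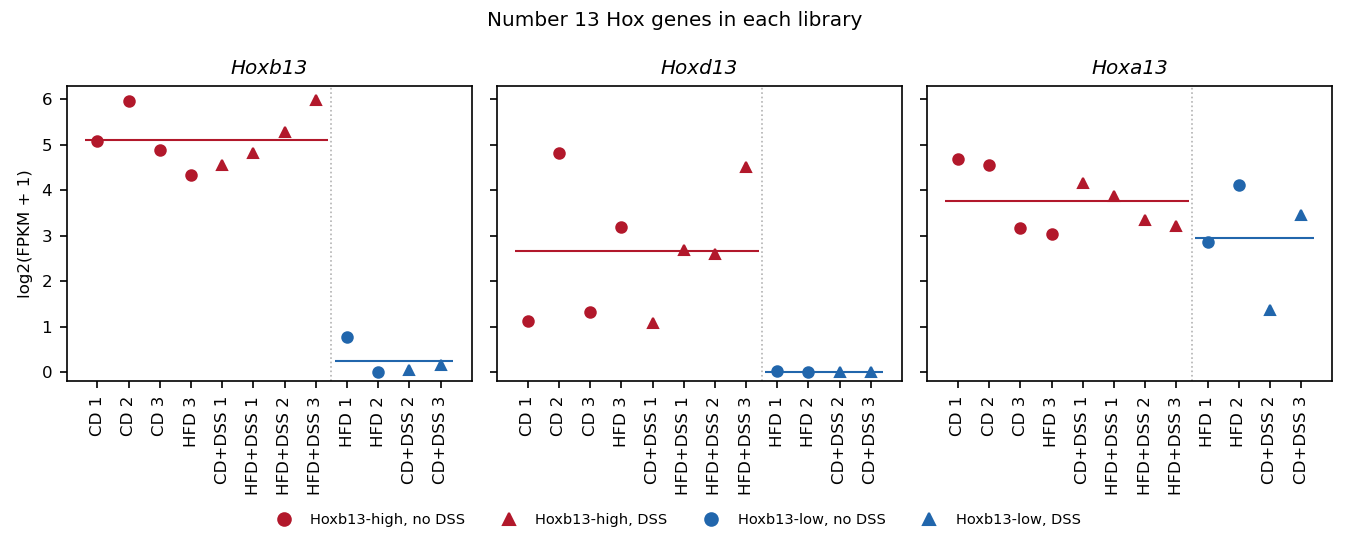
Level of Hoxb13, Hoxd13 and Hoxa13 in each library, as log2(FPKM + 1) on the vertical axis, with circles for no DSS, triangles for DSS, red for Hoxb13-high, blue for Hoxb13-low and a line at each class mean. Hoxb13 and Hoxd13 are separate between the classes and Hoxa13 overlaps.

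The other Hox genes did not pass the test. Of 18 tested, 0 were called, the lowest adjusted p from limma was 0.773, and 15 had a negative log2 difference (16 with each library's FPKM rescaled to the same total). Treatment group means, a fit with a mean for each treatment group, compares classes within HFD and within CD+DSS alone. In it, 17 were negative. Over all 14174 tested genes, 6738 (47.5%) were negative, 8487 with rescaling and 6421 with treatment group means. The median log2 difference (high minus low, on log2(FPKM + 1)) was -0.35 over the 18, against 0.01 over all tested genes. The 6 Hoxb genes with numbers 4 to 9 were all on the negative side, with a median of -0.84. Hoxb6 was at 34.0, 20.7, 45.5 and 22.5 FPKM in HFD 1, HFD 2, CD+DSS 2 and CD+DSS 3. It stood at 2.17 in CD 1 and 2.82 in CD 2, against 24.7 in CD 3 and 36.1 in HFD+DSS 3, so the classes overlapped (log2 difference -1.24 ± 0.55 SE, adjusted p = 0.851).

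Apart from Hoxb13, its paralogs and its neighbours, 14174 genes were tested with limma. At a Benjamini-Hochberg adjusted p under 0.05, 10 rose in the Hoxb13-high libraries (0.0706% of those tested) and 1 fell (0.00706%). Together these are 0.0776% of the genes, while 822 (5.8%) had an unadjusted p under 0.05. The classes were chosen by a measured gene, so these calls describe genes that differ together with Hoxb13 and do not compare treatments. In bulk tissue, fewer cells of a type and less RNA per cell cannot be told apart. In 9 of the 10 the 8 high libraries all lay above the 4 low ones, while over all genes tested 72 (0.508%) lay fully above and 23 (0.162%) fully below.

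Tgm3 (transglutaminase 3, chromosome 2), an enzyme that cross-links proteins in cornifying epithelia, had the largest difference. Its FPKM was 0.987 and 1.89 in HFD 1 and 2 and 0.0717 and 0.227 in CD+DSS 2 and 3. In the high class it ran from 42.5 in CD 3 through a median of 94.4 to 343 in CD 2. The classes lay far apart (138.67 ± 111.54 against 0.794 ± 0.834 FPKM, mean ± SD, n = 8 and 4), with a log2 difference of 6.05 ± 0.51 SE and an adjusted p of 0.000631 from limma.

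Atp12a (chromosome 14), the catalytic subunit of the non-gastric proton-potassium pump, which takes up potassium in the distal colon, was below 1 FPKM in all 4 low libraries. Its values there were 0.313, 0.649, 0.295 and 0.801 in HFD 1, HFD 2, CD+DSS 2 and CD+DSS 3. The high libraries ran from 25.1 in CD 1 through a median of 43.5 to 267 in HFD+DSS 1. No low library came near the high range (log2 difference 5.22 ± 0.50 SE, limma adjusted p = 0.00127). Atp12a reached 1 FPKM only in high libraries and entered the test through them.

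Insl5 (chromosome 4), a peptide hormone of the insulin and relaxin family made by endocrine L cells of the colon, was at 4.08, 6.81, 2.25 and 2.13 FPKM in HFD 1, HFD 2, CD+DSS 2 and CD+DSS 3. It was at 33.4 to 113 in the high class, with a median of 46.7. Its log2 difference was 3.65 ± 0.37 SE (limma adjusted p = 0.00138). Other hormones did not pass the test. Of the 14 tested genes of the endocrine cell list 9 were lower in the high class, and the list median was -0.10. Pyy, the peptide YY gene of the same L cells, was at 42.7 to 166 FPKM in the high and 27.4 to 62.0 in the low libraries (log2 difference 0.96 ± 0.27 SE, adjusted p = 0.431).

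Eno3 (chromosome 11), the muscle-type enolase of glycolysis, was at 4.33, 3.68, 5.41 and 4.55 FPKM in HFD 1, HFD 2, CD+DSS 2 and CD+DSS 3. It ran from 19.5 in CD 3 to 64.8 in CD 2 in the high class, with a median of 29.4 (log2 difference 2.72 ± 0.29 SE, limma adjusted p = 0.00216). Of the 13 tested smooth muscle genes 0 were called.

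Sval1 (seminal vesicle antigen-like 1, chromosome 6) was at 10.3 and 3.32 FPKM in HFD 1 and 2 and at 39.1 and 28.6 in CD+DSS 2 and 3. The high libraries ran from 150 in CD 3 through a median of 183 to 495 in HFD+DSS 1 (log2 difference 3.90 ± 0.47 SE, limma adjusted p = 0.00677). The call was lost without HFD 1 (adjusted p = 0.055). CD 3, the library with seminal vesicle RNA, had the lowest Sval1 of the high class, and the tissue source of Sval1 was not tested.

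B3gnt7 (chromosome 1), which adds N-acetylglucosamine when poly-N-acetyllactosamine and keratan sulfate chains are built, was at 3.29 and 1.88 FPKM in HFD 1 and 2 and at 9.38 and 12.8 in CD+DSS 2 and 3. In the high class it ran from 23.9 in HFD 3 to 87.8 in CD 2 (log2 difference 2.88 ± 0.38 SE, limma adjusted p = 0.013). The call was lost without HFD 1, HFD 2 or CD+DSS 2 in turn (adjusted p of 0.0702 to 0.0943). It was the only called gene of 30 tested glycosylation enzymes, whose median was -0.11, and 0.01 with treatment group means. Fut4, a fucosyltransferase, lay just above the low class in all high libraries, at 14.01 to 29.1 against 10.6 to 13.96 FPKM, and was not called (adjusted p = 0.233).

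The remaining genes that rose were smaller or less separate. Thbs4, the matrix glycoprotein thrombospondin 4, was at 10.0, 12.4, 4.35 and 9.30 FPKM in HFD 1, HFD 2, CD+DSS 2 and CD+DSS 3 and at 29.0 to 103 in the high class. Its log2 difference was 2.39 ± 0.33 SE (limma adjusted p = 0.0141). Nxpe4, of the neurexophilin and PC-esterase family, was at 0.351 to 1.57 and 4.74 to 23.4 FPKM in the low and high classes (log2 difference 2.06 ± 0.28 SE, limma adjusted p = 0.0141). Ctse, the aspartic protease cathepsin E, was at 1.89 to 2.72 and 7.74 to 28.0 FPKM (log2 difference 1.95 ± 0.29 SE, limma adjusted p = 0.0237). Its call was lost in 7 of the 12 fits without 1 library, those without HFD 1, HFD 2, CD+DSS 1, 2 or 3 and HFD+DSS 2 or 3, with adjusted p of 0.0502 to 0.139. All 3 genes lay apart between the classes. Thbs4 and Nxpe4 lost their calls without HFD 1, HFD 2 or CD+DSS 2, with adjusted p of up to 0.115, and Thbs4 also without CD+DSS 3 (0.0553).

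Mptx1 (mucosal pentraxin 1) was called but overlapped. It was at 1544, 1407 and 5399 FPKM in CD 1 to 3 and at 126 to 231 in the other high libraries. In the low class it was at 80.5 and 129.9 in HFD 1 and 2 and at 1.76 and 0.420 in CD+DSS 2 and 3. HFD 2 lay above HFD+DSS 2, at 126 (log2 difference 5.06 ± 0.77 SE, limma adjusted p = 0.0304). The call held only without CD 3 or HFD 3 and was lost in the other 10 fits that left out 1 library (adjusted p of 0.0569 to 0.21). Mptx1, Nxpe4 and Sval1 belong to families with close copies, among which reads may be shared. The gene that fell, Gm11084, is a predicted gene that overlaps Sp3 on the same strand, so reads of the pair may not be told apart. It was at 0 in 6 high libraries, at 0.869 FPKM in CD 1 and at 0.922 in CD 2. In the low class it was at 0.972 (CD+DSS 3) to 7.39 FPKM (log2 difference -2.02 ± 0.27 SE, limma adjusted p = 0.013), while Sp3 was not called (adjusted p = 0.999). Gm11084 reached 1 FPKM only in HFD 1, HFD 2 and CD+DSS 2, all low libraries, and entered the test through them. The call was lost without HFD 1, HFD 2 or CD+DSS 2 (adjusted p of up to 0.115). Mptx1 and Gm11084 fall outside the rule for named genes and are named because they were called.

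**Figure D3:**
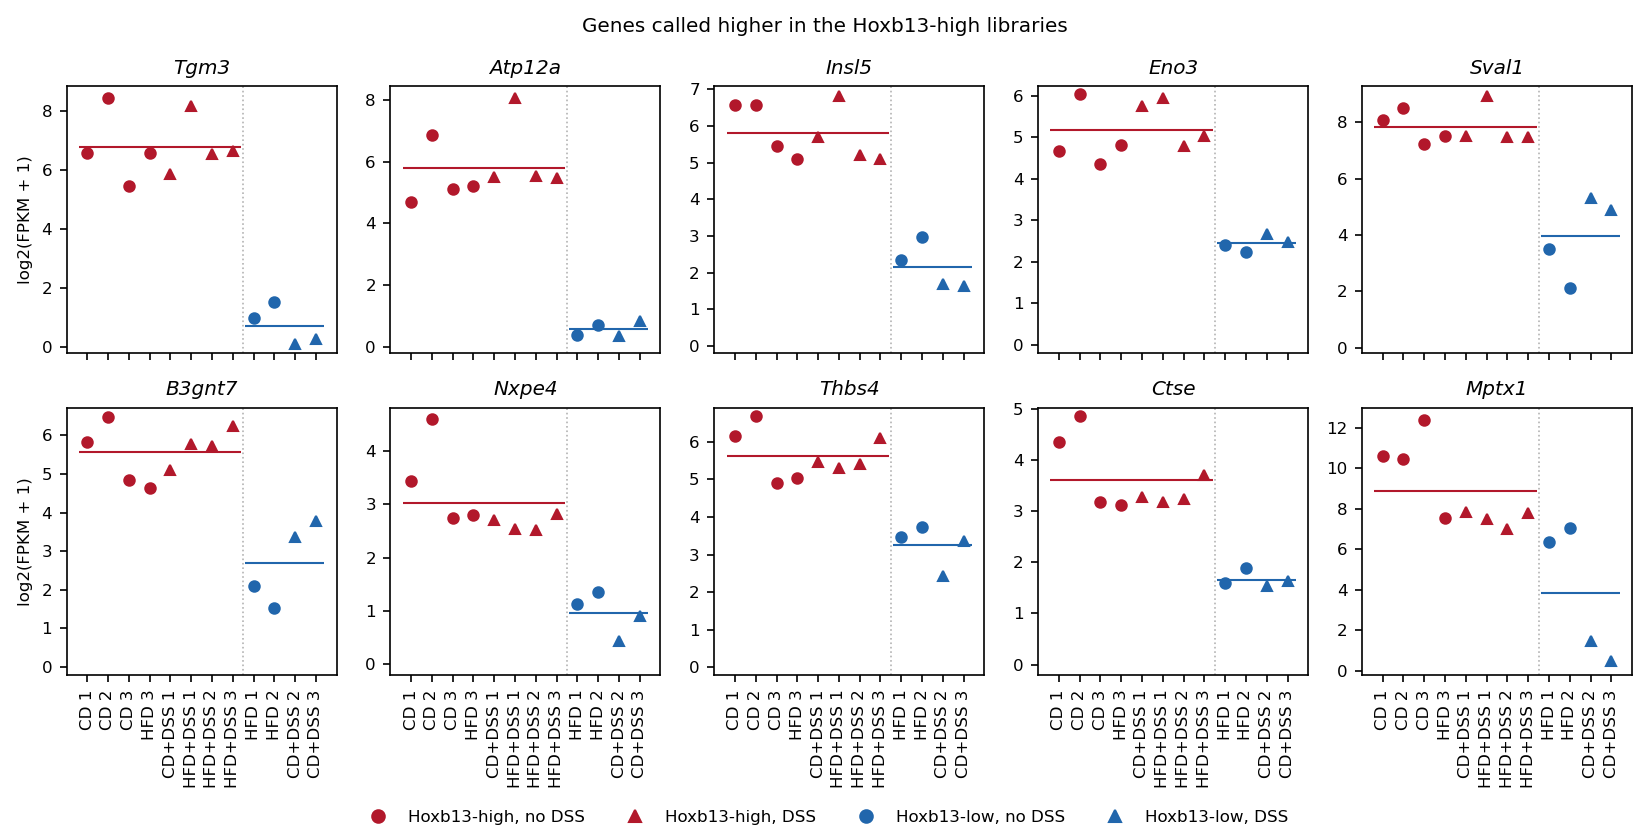
Levels of the 10 genes called higher, as log2(FPKM + 1) on the vertical axis, for each library, with circles for no DSS, triangles for DSS, red for Hoxb13-high, blue for Hoxb13-low and a line at each class mean. In 9 genes all 8 red points lie above all 4 blue points, and in Mptx1 they overlap.

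Among the high libraries, CD 2 had the highest level of 6 of the 10 genes and HFD+DSS 1 of 3, while CD 3 was lowest for 4. HFD 3 lay above both low HFD libraries in 10 of 10 genes, and CD+DSS 1 lay above both low CD+DSS libraries in 10 of 10. This order was fixed for the 9 genes whose classes lay apart, so it is no separate support for the calls. A fit with a mean for each treatment group rests the class difference on HFD and CD+DSS alone. All 11 genes kept their sign in it, which was fixed for the 10 whose classes lay apart. The log2 differences were 1.54 to 5.50 for the 10 that rose. In this fit limma called 0 genes (326 at an unadjusted p under 0.05, which is 2.3% of those tested). The lowest adjusted p in it was 0.119, for Tgm3. That fit gives no weight to CD and HFD+DSS, which held high libraries only. Tgm3, Atp12a and Eno3 were called under every other alternative, and Insl5 under all of those but voom on recovered fragments (adjusted p = 0.0612).

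The class difference in each stratum came from 1 fit to all 12 libraries. They share 1 estimate of the spread, so the SE of a gene is the same in both strata. For the 6 libraries without DSS, limma called 5 genes (0.0353%, with 628 or 4.43% at an unadjusted p under 0.05). They were Tgm3, Sval1, B3gnt7 and S100a14 as higher (0.0282%) and Gm11084 as lower. In the 6 with DSS it called 3 (0.0212%), Tgm3, Atp12a and Insl5, all higher, and 0 lower (827 or 5.83% at an unadjusted p under 0.05). The log2 difference of Tgm3 was 5.49 ± 0.72 SE without and 6.61 ± 0.72 with DSS. That of Sval1 was 5.04 ± 0.51 without and 2.75 ± 0.51 with DSS. All 11 genes had the same sign in both strata, which was fixed for the 10 whose classes lay apart. The difference between the strata was tested as an interaction and gave 0 calls with limma (658 or 4.64% at an unadjusted p under 0.05, lowest adjusted p = 0.898).

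**Figure D4:**
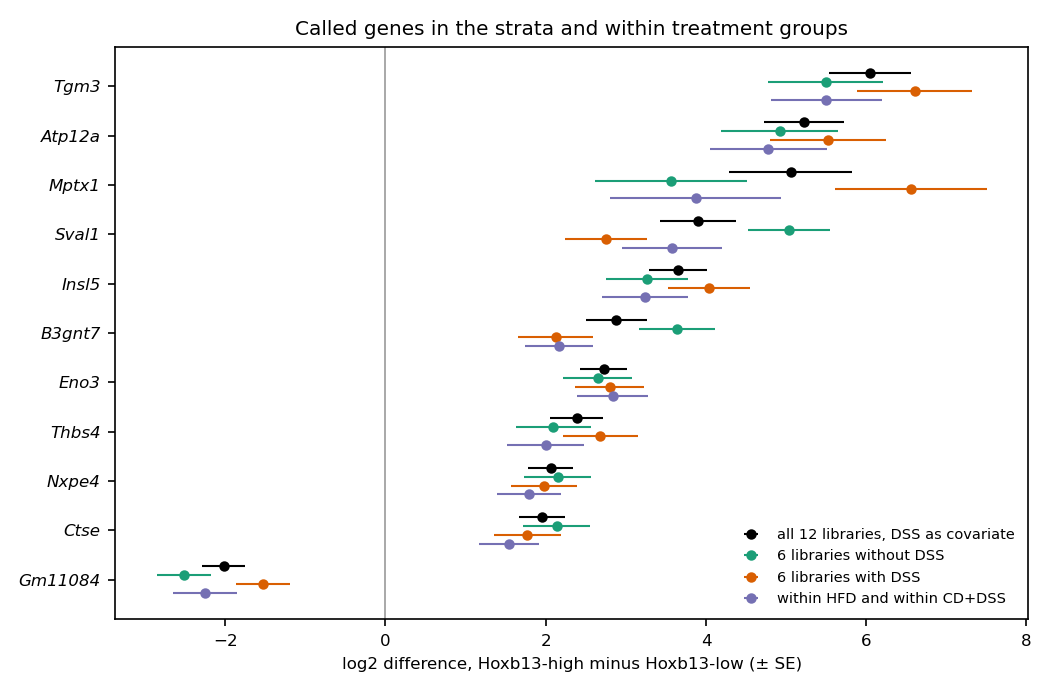
Log2 difference (high minus low, ± SE, horizontal axis) of the 11 called genes over all 12 libraries, in each DSS stratum and within HFD and CD+DSS. Every estimate of a gene lies on the same side of 0, with Tgm3 at 6.05 over all libraries. The side was fixed for the 10 genes whose classes lay apart.

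Among the uncalled genes that met the naming rule, Slc20a1, a sodium-coupled phosphate transporter, had the lowest p and was at 11.1 to 28.1 FPKM in the high and 5.599 to 7.85 in the low libraries. The classes were apart and the call was missed (log2 difference 1.17 ± 0.20 SE, limma adjusted p = 0.0871). Without CD 3 it was called, at an adjusted p of 0.00209. On the negative side, no gene under the naming rule was called. The 8 named there without a call, Fgfr2, Fam13a, Stard3nl, Lpin2, Samd10, Sec16b, Casp2 and Ctnnb1, had log2 differences of -0.89 to -0.25 and adjusted p of 0.323 to 0.924. Ctnnb1, the beta-catenin gene of Wnt signalling, was at 184 to 229 FPKM in the low and 115 to 183 in the high libraries.

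Gene lists were described by their counts and medians, beside a median of 0.01 over all genes tested, of which 52.5% were higher and 47.5% lower in the high class. Of 35 lists, 4 held a called gene. In the list of genes described as higher toward the anal end of the colon, 2 of 7 tested members, Atp12a and Insl5, were called and the median log2 difference was 0.78. Its member Scnn1a, a subunit of the epithelial sodium channel, was at 10.5 to 33.1 FPKM in the high and 9.44 to 13.5 in the low libraries (0.78 ± 0.26 SE, limma adjusted p = 0.601). Fxyd4, a regulator of the sodium pump, was at 0.0900 to 10.4 in the high and 0 to 0.232 in the low libraries (limma adjusted p = 0.751). Like Atp12a, Fxyd4 entered the test through high libraries only. The other 3 tested members were lower. B4galnt2, a glycosyltransferase, was at 72.6 to 345 FPKM in the high and 241 to 346 in the low libraries (-0.58 ± 0.33 SE, adjusted p = 0.932). Hsd11b2, which inactivates glucocorticoids, was at 79.8 to 165 and 86.4 to 187 FPKM (log2 difference -0.08, adjusted p = 0.996), and Scnn1b, another sodium channel subunit, at 1.28 to 2.33 and 1.36 to 3.83 (-0.17, adjusted p = 0.996). In all 3 the classes overlapped. In the list of ileum, caecum and proximal colon genes, 0 of 7 were called and the median was -0.33, which turned to 0.16 with treatment group means. Its bile acid exporter subunit Slc51a was at 0.656 to 38.6 and 12.5 to 49.4 FPKM (-1.01 ± 0.76 SE, adjusted p = 0.963).

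Ion and water transport beyond Atp12a was not called. Lower in the high class were 8 of 15 tested sodium and potassium transport genes and 6 of 15 chloride and bicarbonate genes. So were 2 of 4 aquaporins and 4 of 11 nutrient transporters. Best2, a bicarbonate channel of goblet cells, had medians and ranges of 6.28 (2.28 to 11.5) FPKM in the high class and 0.423 to 2.49 in the low class (1.47 ± 0.36 SE, limma adjusted p = 0.275). Slc26a3, the chloride-bicarbonate exchanger, was at 28.4 to 164 and 19.3 to 32.9 FPKM (1.33 ± 0.42 SE, adjusted p = 0.567). Slc37a2, a sugar-phosphate exchanger, lay apart at 1.39 to 31.0 against 0.379 to 1.05 FPKM (2.64 ± 0.64 SE, adjusted p = 0.275). Outside transport, Adh1, an alcohol dehydrogenase, lay apart at 62.0 to 267 against 31.9 to 52.9 FPKM (1.36 ± 0.36 SE, limma adjusted p = 0.358). In its xenobiotic list 24 of 30 tested genes were lower (median -0.24), such as Ces1d (-0.79) and Ugt1a1 (-1.11). With treatment group means 11 of the 30 were lower and the median was 0.15. None of these differences passed the adjustment over all genes.

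In the lists of other cell types, Insl5 was the only called gene. Of 13 tested smooth muscle genes 13 were higher in the high class and 0 called, with a median of 0.28. With treatment group means 3 of the 13 were higher and the median turned to -0.06, and leaving out 1 library gave 0.0620 (without CD+DSS 2) to 0.55 (without HFD 2). Their median was -0.40 without DSS and 0.95 with DSS, and their summed level was 1080 to 4370 FPKM in the high and 943 to 2409 in the low libraries, highest in HFD+DSS 3. Of 20 proliferation genes 19 were higher and 0 called (median 0.29, and 0.0265 without CD+DSS 2), and of 9 follicular B cell genes 9 were higher and 0 called (median 0.57). Of 16 T and natural killer cell genes 14 were lower and 0 called (median -0.36). With treatment group means 2 of the 16 were lower and the median turned to 0.15. Summed T and natural killer genes stood at 36.9 to 235 FPKM in the high and 102 to 151 in the low libraries. The part of these lists in the 11 calls was not tested.

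**Figure D5:**
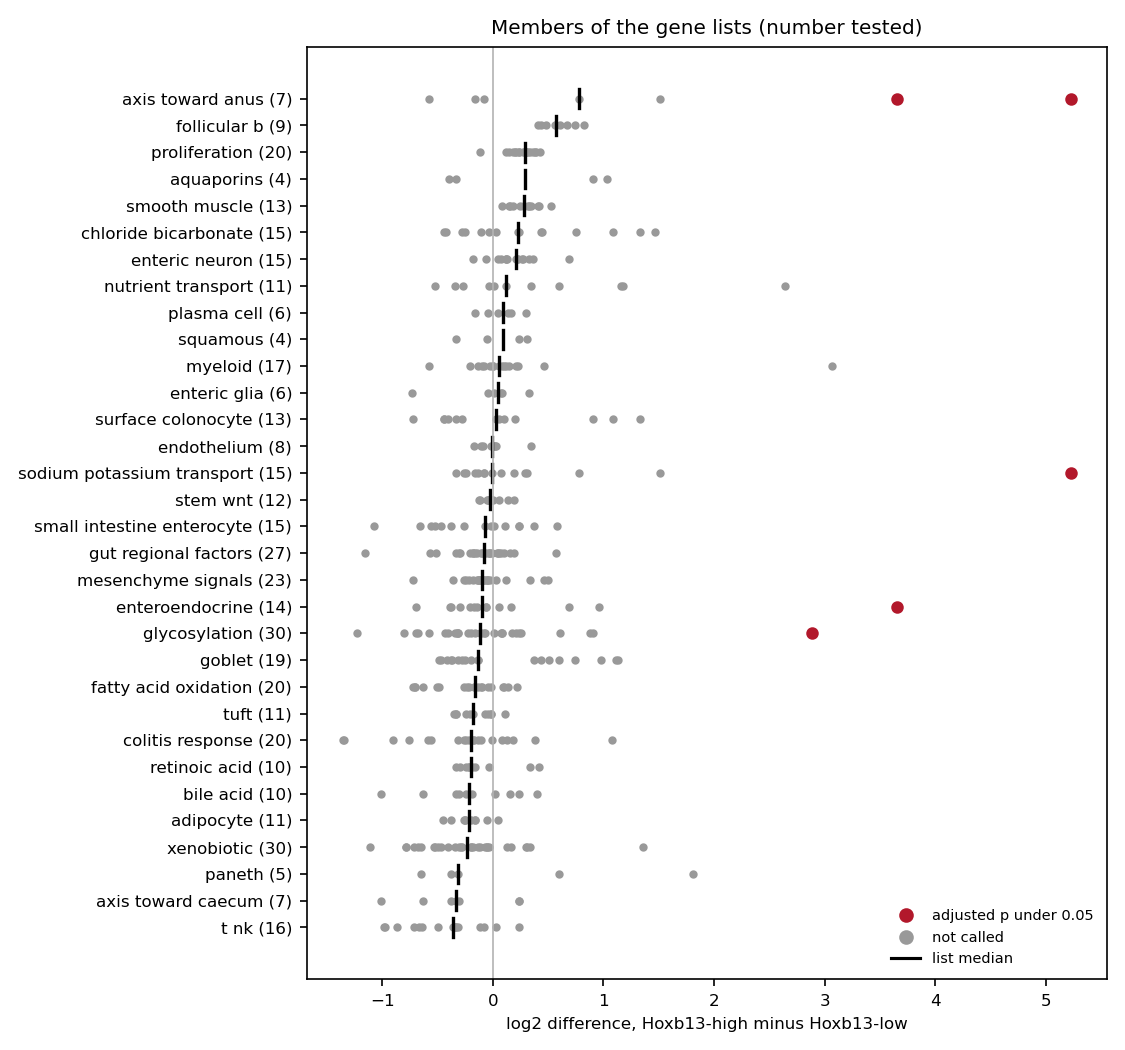
Log2 difference of each tested member (points, horizontal axis, high minus low) of the gene lists with 4 or more tested members, with list medians as bars and called genes in red. The red points are Atp12a and Insl5, which each stand in 2 lists, and B3gnt7.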

How the data were processed

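The authors deposited 1 table of FPKM values (54532 genes by Ensembl identifier, 12 columns). Per the labels' protocols, an RNeasy kit gave the RNA and SMARTER mRNA-Seq chemistry the libraries, and the build was mm10, per the submitters' processing notes. No source used here names the aligner or counting tool. Symbols and coordinates came from GENCODE M21 for 54495 identifiers. Low FPKM values stepped in whole fragments: 96.4% to 97.1% of values per library came out whole within 0.1 fragment, and 14657780 to 17932252 fragments fell on genes. The deposited FPKM carried equal median ratios between libraries. The library size they implied was not the fragment count: in CD+DSS 2 it was 13498723, against 15991724 fragments on genes.

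Genes that reached 1 FPKM in 3 or more of the 12 libraries were tested as log2(FPKM + 1), which understates changes of low genes, with limma 3.58.1 in R 4.3.3 (eBayes with a trend, DSS as a covariate, two-sided). Hoxb13, its tested paralogs and 2 RNA genes within 10000 bases of it were left out of the tests, since Hoxb13 defines the classes. The script was tested on simulated data. Genes were named by a rule: up to 15 called per direction with a mean of 5 FPKM or more and no overlap, filled to 10 with uncalled genes, up to 3 per list, Hox genes and 5 for the interaction; 1 gene so named is not reported here. Near-copies may share reads. The classes, lists and rule were chosen with earlier results of these data known, so list counts support nothing. Alternatives were another pseudocount, filters, scaling, covariates, a replicate block, the Hox level, voom, no trend, and leaving out each library.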

Additional observations from a re-analysis of the deposited data

Results flagged for a closer look

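Of 48 checks of the highest and lowest library within a class, 7 stood out by Dixon's criterion, and chance alone gives about 1 in 20 groups. Nxpe4 in CD 2 was at 23.4 FPKM, above the other high libraries. Sec16b in HFD+DSS 1 was at 3.88 FPKM, below the other high libraries. Ctnnb1 was lowest among the high libraries in HFD+DSS 3, at 115 FPKM, and highest among the low ones in CD+DSS 2, at 229 FPKM. Hoxd13 was at 0.0253 FPKM in HFD 1, the only low library with a fragment of it. The summed prostate and seminal vesicle genes were at 364 FPKM in CD 3 and, at a trace level, at 0.199 in HFD 2 among the low libraries.

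Among 132 named genes, 3 had classes that were fully apart in opposite directions in the strata. All 3 were among the 5 genes named for the smallest p of the interaction, so a difference between the strata was selected for. How many of all tested genes did the same was not counted. The log2 difference with DSS minus that without was 1.17 for Akap12, a kinase anchoring protein, 1.42 for Cavin2, a caveolar coat protein, and 1.502 for Mustn1, a small nuclear protein of muscle and skeleton. The interaction test in limma did not call them (adjusted p = 0.898 for each).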

How the results depend on the processing

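The 11 called genes kept their direction under all alternatives in which they were tested. For the 10 whose classes lay apart, this was fixed with treatment group means and in the fits that left out 1 library. Gm11084 did not pass the filter at 5 FPKM and was not tested there. The counts of genes called higher and lower, 10 and 1 over all libraries, were 20 higher with a pseudocount of 0.1, 5 higher with no filter, 0 lower with a filter at 5 FPKM and 0 lower with no covariate. They were 0 and 0 with treatment group means, 62 and 8 with the mean level of Hoxa13, Hoxb13 and Hoxd13 in place of the classes, 6 and 0 with voom on recovered fragments, and 6 and 0 without HFD+DSS replicates 1 and 3 together, a choice made after seeing the data. Without DSS (4 and 1), there were 0 lower with a pseudocount of 0.1, a filter at 5 FPKM or rescaled columns, and 11 lower with no filter. With DSS (3 and 0), there were 1 and 6 with no filter and 5 higher with rescaled columns. The interaction (0 and 0) gave 6 and 4 with no filter. The causes were not tested. Under treatment group means, 13 of 34 list medians took the other sign: those of the caecum, T and natural killer, smooth muscle and glycosylation lists, the xenobiotic list (0.15), and the sodium and potassium transport, goblet, fatty acid oxidation, skeletal muscle, enteric glia, endothelium, adipocyte and exocrine pancreas lists.

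Leaving out 1 library gave 4 to 15 higher and 0 to 2 lower over all libraries, 0 to 7 and 0 to 1 without DSS, 0 to 5 and 0 to 1 with DSS, and 0 to 0 and 0 to 1 for the interaction. The count of genes called higher fell to 4 without HFD 1, 5 without HFD 2 and 5 without CD+DSS 2, and Tgm3, Atp12a, Insl5 and Eno3 were called in all 12 of these fits. The proliferation median ranged from 0.0265 to 0.42.

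Replicate numbers did not pair the samples: of 18 pairs with the same number in different groups, 3 had a correlation of their deviations above 0.1 (range -0.462 to 0.204). With a replicate block, 6 genes were called higher over all libraries, 1 higher and 0 lower without DSS and 0 higher with DSS, and 7 of the 11 calls were kept. Over all named genes and alternatives, 2882 values kept their direction and side of the threshold, 63 lost the call, 9 gained it and 7, of Hoxb13 and Hoxd13, moved in size.

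Another 41 values, of 20 named genes of which 0 were called, took the other sign. With rescaled columns these were Acta1 (-0.018) and Hoxa5 (-0.041). With treatment group means they were Sprr1a (0.71), Ckm (-0.24), Acta1 (-0.10), Synm (-0.0062), Vip (-0.11), Kdr (0.23), Lipe (0.19), Cidec (0.44), Cd8a (0.14), Cd8b1 (0.082), Clps (-0.24), Hoxa5 (-0.24) and Hoxa4 (-0.29). With the posterior Hox level they were Acta1 (-0.20), Clps (-0.21) and Hoxa10 (0.041). Leaving out 1 library gave ranges of -0.0876 to 0.24 for Ascl2, -0.13 to 0.36 for Ckm, -0.17 to 0.26 for Acta1, -0.19 to 0.017 for Prox1, -0.29 to 0.019 for Kdr and -0.17 to 0.27 for Clps. They were -0.37 to 0.17 for Hoxa10, -0.16 to 0.16 for Hoxa5, -0.45 to 0.10 for Hoxd9, -0.031 to 0.47 for Cavin2, -0.056 to 0.34 for Akap12 and -0.074 to 0.46 for Mustn1. The causes were not tested.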

Other observations

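Ly6g, a neutrophil surface protein of a family with close copies, was at 22.7 to 521 FPKM in the high and 0.800 to 72.7 in the low libraries (log2 difference 3.07 ± 0.70 SE, limma adjusted p = 0.261). The neutrophil gene S100a9 had a log2 difference of -0.58. Hottip, Pla2g4f and Gcnt4 fall outside the rule for named genes and were picked after their values were seen. Hottip, a noncoding RNA at the end of the Hoxa cluster, was at 1.495 to 8.73 FPKM in the high and 0.0772 to 0.768 in the low libraries (1.77 ± 0.35 SE, adjusted p = 0.163). Pla2g4f, a phospholipase, was at 1.12 to 8.41 against 0.106 to 0.858 FPKM (1.67 ± 0.28 SE, limma adjusted p = 0.0626). Hottip and Pla2g4f reached 1 FPKM only in high libraries and entered the test through them. Gcnt4, a mucin glycosylation enzyme, lay below the low class in all high libraries, at 0.838 to 3.67 against 3.68 to 4.30 FPKM (-0.69 ± 0.21 SE, adjusted p = 0.532).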
